A study of Mus musculus with 48 samples.

Results

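The 30 genes described here encode the glucose transporters, the enzymes of glycolysis and its branch to glycerol-3-phosphate, the lactate dehydrogenases and the lactate transporters of mouse skeletal muscle. They were taken by name from a table of read counts that held 27179 genes, and all 30 were found. RNA was sequenced from soleus, gastrocnemius, vastus intermedius and vastus lateralis of male FVB/NJ mice, an inbred strain. The mice were adults or late embryos (stage E18.5). Each of the 6 animals of a stage gave 1 library from every muscle. The labels name no transgene and no treatment. The vastus muscles belong to the thigh, the other two to the shank. Soleus and vastus intermedius are the slow-biased muscles of the study, and gastrocnemius and vastus lateralis the fast-biased ones. The comparisons asked how each gene differed between adult and E18.5 muscle, between a slow-biased and a fast-biased muscle, and whether the second difference changed with age.

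Glycolysis splits glucose into pyruvate in the cytosol, and lactate dehydrogenase converts pyruvate and lactate into each other. Most steps are served by several genes. Skeletal muscle is known for its own isoforms of glucose transporter, hexokinase, phosphofructokinase, phosphoglycerate mutase and enolase, while other isoforms of these steps are used by fetal and many non-muscle cells. Fast fibres are known for high glycolytic capacity and lactate export, and slow fibres for oxidation, including that of lactate taken up from outside.

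Depth was 14.9 M to 32.4 M counts per library, with a median of 22.8 M (M, 1e6). Values are CPM (a gene's counts per 1e6 counts of its library) scaled by TMM, a normalization that sets the bulk of genes equal between libraries. A fold change is tested with edgeR's quasi-likelihood test, adjusted over all genes tested by the Benjamini-Hochberg method, at 0.05. Collections, lettered A to F within a stage, are the 6 date tags of the count table's sample names, each found once per muscle. They are taken to be the 6 animals, although the tags are not tied to the labels' animal numbers. In adult collection B the library labelled vastus intermedius has an embryonic profile, with 8916 CPM of the embryonic myosin Myh3 and 37.7 CPM of Ldhb. It was left out, so that adult vastus intermedius has 5 libraries and the other 7 groups have 6. With it, 14 of the member differences given below missed the threshold. Other libraries also stood apart. In E18.5 collections B and F the slow myosin Myh7 was lower in the library labelled vastus intermedius (10.5 and 42.7 CPM) than in the one labelled vastus lateralis (1160.3 and 142 CPM). In collections A, C, D and E the order was the reverse, with vastus intermedius at 581 to 2476 CPM and vastus lateralis at 38.03 to 179 CPM. Results that rest on the E18.5 vastus libraries are therefore also given without B and F where this changes a call. The adult soleus and vastus lateralis labels match the myosins: Myh7 was 14908 to 28415 CPM in soleus and 0 to 9.41 CPM in vastus lateralis. Myh4, the fastest myosin, was 73.8 to 158 CPM in soleus and 119766 to 175416 CPM in vastus lateralis. Adult gastrocnemius had 15.2 to 1459.5 CPM of Myh7 and 84479 to 144536 CPM of Myh4. Adult vastus intermedius was mixed, with 3006 to 10850.5 CPM of Myh7 and 1068 to 52435 CPM of Myh4. It also held 14928 to 23278 CPM of the fast myosin Myh2 and 11418 to 29043 CPM of the fast myosin Myh1. In bulk tissue, fewer cells of a type and less RNA per cell cannot be told apart. Cell type markers moved with stage: the sum of 6 fibroblast genes was 869.5 to 2533 CPM in adult and 8460.0 to 19384 CPM in E18.5 libraries, and that of 6 cell cycle genes 30.5 to 42.6 CPM in adult and 595 to 985 CPM in E18.5 libraries. All 6 cell cycle genes and 4 of the 6 fibroblast genes were lower in adults in each muscle, while 2 fibroblast genes were higher in soleus, gastrocnemius and vastus intermedius and 1 in vastus lateralis. The sum of 11 muscle fibre genes, among them the embryonic and neonatal myosins, was 112391 to 387777 CPM in adult and 18445.5 to 64966 CPM in E18.5 libraries, with 7 to 9 genes higher and 2 to 4 lower in adults. No gene of these 3 lists was at 0. The sum of 5 adipocyte genes was 131 to 830.4 CPM in adult and 68.9 to 283 CPM in E18.5 libraries, with 5 of the 5 tested genes higher in adult soleus, 1 of 1 in gastrocnemius and in vastus intermedius and 3 of 4 in vastus lateralis, and up to 2 of the 5 were at 0 in an E18.5 group. Their part in the stage results was not tested. Scaling by library size alone, chosen after seeing the data, moved the median log2 change of all genes to -0.75 in soleus, -1.21 in gastrocnemius, -0.80 in vastus intermedius and -1.20 in vastus lateralis for adult against E18.5. In adults it moved that of soleus over gastrocnemius to 0.46 and of vastus intermedius over vastus lateralis to 0.35. The fold changes below are relative to the bulk of genes.

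Most of the 30 genes differed between adult and E18.5 muscle, with larger median rises in gastrocnemius and vastus lateralis than in soleus and vastus intermedius. In soleus 15 members were higher and 10 lower in adults (median log2 change 0.38, against -0.06 over all genes tested), where 36.3% of 14865 genes were higher and 39.7% lower. In gastrocnemius 22 were higher and 8 lower (median 2.11, against -0.12), where 38.2% of 14667 genes were higher and 44.0% lower. In vastus intermedius 18 were higher and 9 lower (median 1.01, against -0.04), with 36.9% and 39.2% of 14884 genes. In vastus lateralis 20 were higher and 9 lower (median 1.45, against -0.15), with 36.4% and 42.6% of 14523 genes. By library size alone the split of all genes was 2812 higher and 9222 lower in soleus (5400 and 5895 by TMM) and 2372 and 10649 in gastrocnemius (5601 and 6451). It was 2601 and 9561 in vastus intermedius (5496 and 5834) and 2077 and 10410 in vastus lateralis (5285 and 6194). The members took 1.34 ± 0.099% of all counts in adult soleus, 3.94 ± 0.24% in adult gastrocnemius, 2.38 ± 0.49% in adult vastus intermedius and 4.47 ± 0.72% in adult vastus lateralis (SD, n = 5 or 6, no test). At E18.5 they took 1.15 ± 0.23% in soleus, 1.14 ± 0.16% in gastrocnemius, 1.54 ± 0.22% in vastus intermedius and 1.63 ± 0.25% in vastus lateralis. Without the 20 most abundant other genes in the total, the shares were 1.66%, 5.77%, 3.17% and 6.81% in adults and 1.30%, 1.29%, 1.83% and 1.92% at E18.5, in the same order of muscles.

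**Figure D1:**
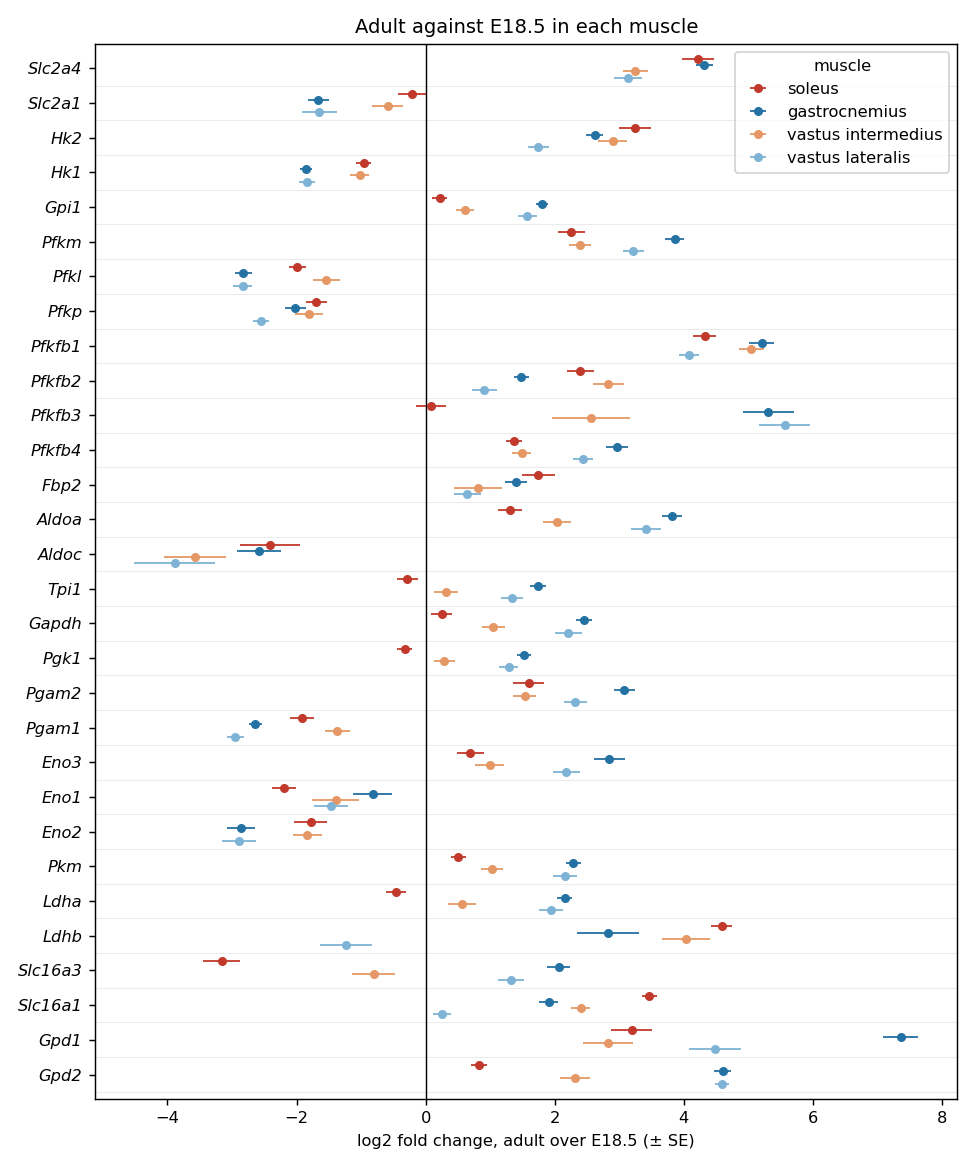
Log2 fold change of each member, adult over E18.5 (x axis), with its standard error, by muscle (colour). Slc2a4, Hk2, Pfkm, Pfkfb1 and Aldoa are right of 0 in all 4 muscles, Hk1, Pfkl, Pfkp, Aldoc, Pgam1, Eno1 and Eno2 left of it, and Ldhb, Slc16a3 and Ldha lie on both sides.

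At glucose entry the insulin-responsive transporter Slc2a4 (GLUT4) was higher in adults in every muscle, while the widely expressed Slc2a1 (GLUT1) was lower in 3 of the 4. Adult soleus had 228 to 393 CPM (median 276) of Slc2a4, against 9.32 to 22.6 CPM (median 15.5) in E18.5 soleus. Adult gastrocnemius had 307 to 377 CPM (median 357), against 11.1 to 19.9 CPM (median 18.4) at E18.5. The 5 adult vastus intermedius libraries had 302, 268, 294, 349.5 and 389 CPM of Slc2a4, against 17.8 to 42.7 CPM (median 37.5) at E18.5. Adult vastus lateralis had 247 to 397 CPM (median 312), against 19.6 to 48.4 CPM (median 38.7) at E18.5. No adult library overlapped an E18.5 one, and the log2 change was 4.22 ± 0.24 in soleus, 4.32 ± 0.13 in gastrocnemius, 3.25 ± 0.20 in vastus intermedius and 3.13 ± 0.21 in vastus lateralis (± SE, largest adjusted p 5.15e-09). Slc2a1 was 5.02 to 11.3 CPM (median 8.51) in adult gastrocnemius, against 21.1 to 34.6 CPM (median 26.1) at E18.5, a log2 change of -1.66 ± 0.17. It was 2.44 to 10.9 CPM (median 8.70) in adult vastus lateralis, against 16.3 to 35.98 CPM (median 24.5) at E18.5, a change of -1.65 ± 0.27. It kept higher levels in adult slow-biased muscle, at 13.4 to 38.4 CPM (median 18.4) in soleus and 23.0, 21.2, 14.4, 7.87 and 11.8 CPM in vastus intermedius, against 20.2 to 36.8 CPM (median 23.7) in E18.5 soleus and 19.7 to 32.1 CPM (median 23.3) in E18.5 vastus intermedius. The soleus change of -0.20 ± 0.22 missed the threshold (adjusted p 0.41) and passed without adult collection A (-0.43). The change of -0.59 ± 0.23 in vastus intermedius (adjusted p 0.0344) was lost without any one of adult D, E or F or E18.5 C (-0.42 to -0.56) and without E18.5 B and F (-0.64). Per kilobase of transcript, Slc2a4 made up 92.0 ± 4.17%, 97.5 ± 0.584%, 94.7 ± 2.54% and 97.3 ± 0.887% of the 2 transporters in adult soleus, gastrocnemius, vastus intermedius and vastus lateralis (SD). At E18.5 its share was 35.6 ± 7.58%, 37.7 ± 5.10%, 55.7 ± 7.55% and 55.6 ± 7.88% in the same order of muscles.

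Hexokinase, which traps glucose as glucose-6-phosphate, changed in the same way: the muscle isoform Hk2 was higher and the widely expressed Hk1 lower in adults in all 4 muscles. Hk2 was 595 to 1464 CPM (median 659) in adult soleus and 385 to 657 CPM (median 564) in adult gastrocnemius, against 55.0 to 109 CPM (median 85.8) in E18.5 soleus and 70.0 to 109 CPM (median 92.4) in E18.5 gastrocnemius. In adult vastus intermedius it was 1450.1, 595, 793, 688 and 836 CPM, against 86.4 to 146 CPM (median 124) at E18.5. Adult vastus lateralis had 319 to 543 CPM (median 434), against 96.4 to 179 CPM (median 123) at E18.5. The soleus and vastus intermedius of adult collection A, at 1464 and 1450.1 CPM, stood far above the other libraries of their groups. The Hk2 log2 change was 3.24 ± 0.25 in soleus, 2.62 ± 0.14 in gastrocnemius, 2.90 ± 0.22 in vastus intermedius and 1.75 ± 0.17 in vastus lateralis. Hk1 ranged over the 23 adult libraries from 14.2 to 34.9 CPM (median 20.6), against 43.6 to 72.6 CPM (median 60.2) over the 24 E18.5 libraries, without overlap, and fell by 0.96 to 1.85 on the log2 scale. Hk2 held 95.2% to 96.1% of hexokinase counts per kilobase on average in the adult groups, against 53.5% to 63.3% in the E18.5 groups.

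**Figure D2:**
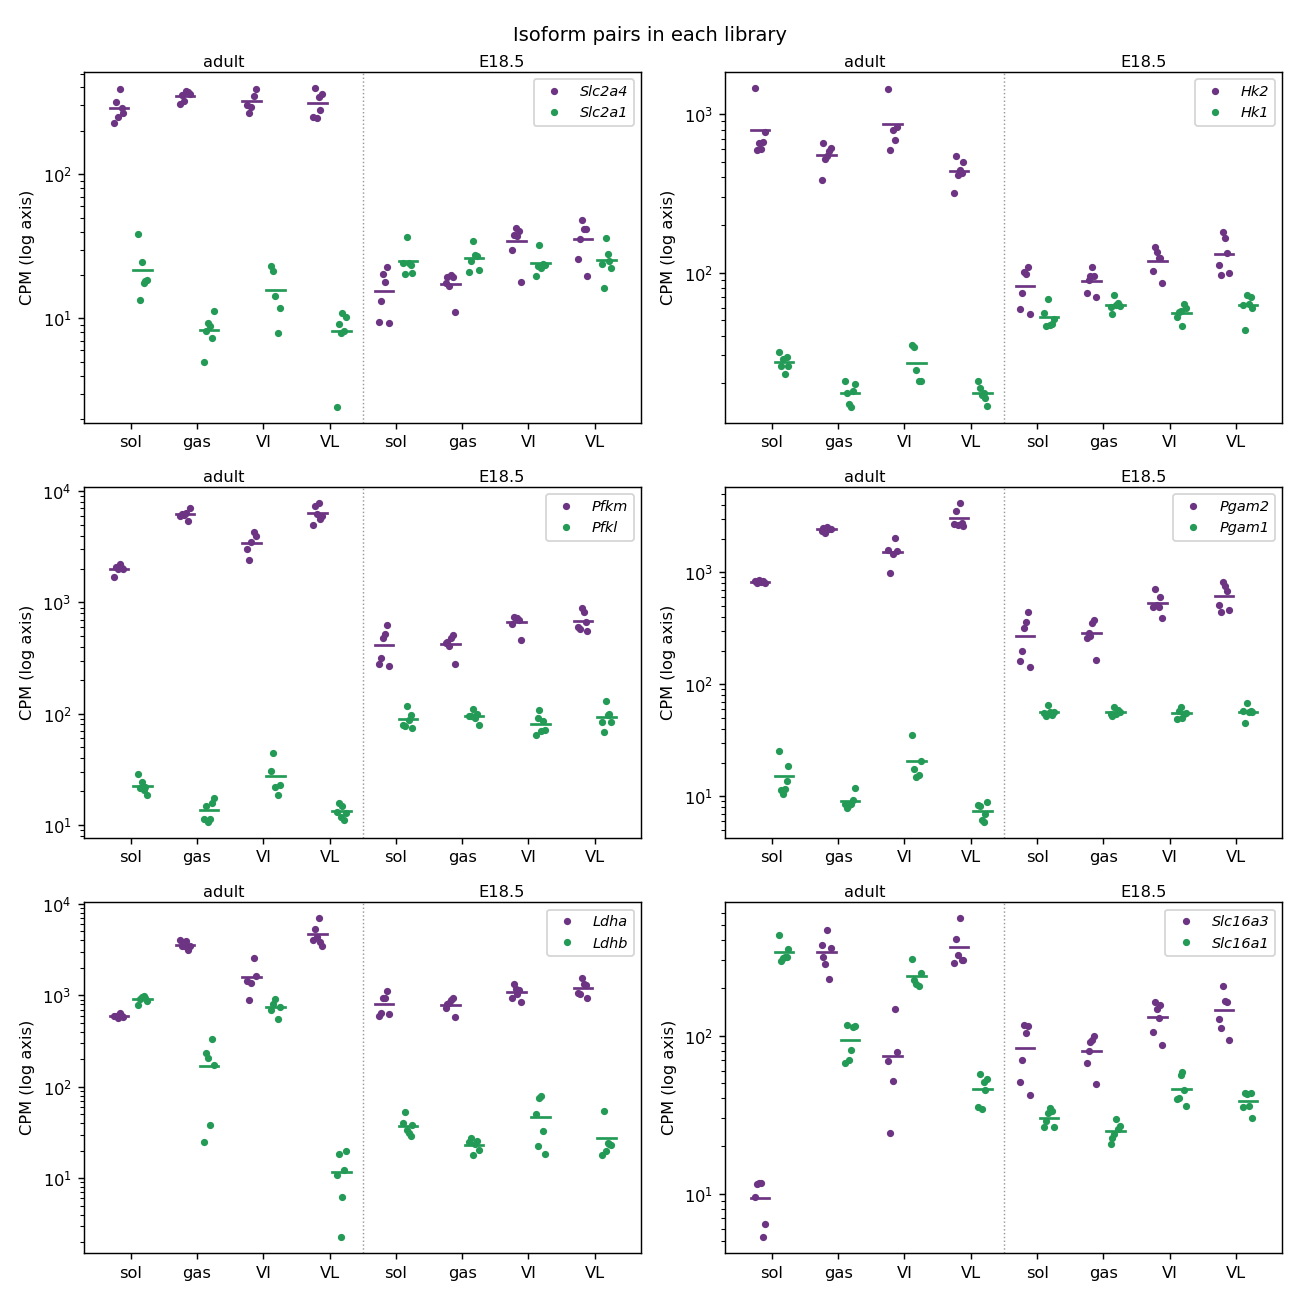
CPM of the 2 isoforms of 6 steps in each library (log axis), adult groups left of the dotted line and E18.5 groups right of it (sol, soleus; gas, gastrocnemius; VI, vastus intermedius; VL, vastus lateralis). Points are libraries and bars group means. In every adult muscle, the muscle isoforms of the upper 4 panels lie above the E18.5 libraries of that same muscle. Ldhb and Slc16a1 stand highest in adult soleus and vastus intermedius.

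Phosphofructokinase-1 commits sugar to glycolysis, and its muscle subunit Pfkm was higher in adults in every muscle while the liver and platelet subunits Pfkl and Pfkp were lower. Pfkm was 1685 to 2218 CPM (median 2012) in adult soleus and 5406 to 7117 CPM (median 6195) in adult gastrocnemius, against 268 to 627 CPM (median 398) in E18.5 soleus and 281 to 509.6 CPM (median 438) in E18.5 gastrocnemius. It was 3029, 2398, 3486, 4305 and 3921 CPM in adult vastus intermedius and 4998 to 7827 CPM (median 6172) in adult vastus lateralis, against 455 to 738 CPM (median 711) in E18.5 vastus intermedius and 553 to 885 CPM (median 639) in E18.5 vastus lateralis. The adult and E18.5 ranges did not overlap, and the log2 changes were 2.26 ± 0.21, 3.86 ± 0.14, 2.39 ± 0.17 and 3.21 ± 0.16 in soleus, gastrocnemius, vastus intermedius and vastus lateralis. Pfkl spanned 10.6 to 43.9 CPM (median 17.4) over the adult libraries, against 64.6 to 129 CPM (median 89.7) at E18.5. Pfkp spanned 6.63 to 24.8 CPM (median 11.95) over the adult libraries, against 26.8 to 84.0 CPM (median 50.7) at E18.5. Neither overlapped between the stages in any muscle, and the Pfkm share per kilobase averaged 98.4% to 99.7% in adult groups, against 76.9% to 85.3% at E18.5. Gpi1 is the isomerase just upstream and has no second isoform among the members. It was 1316 to 1720.1 CPM (median 1616) in adult gastrocnemius and 1454 to 2285 CPM (median 1609) in adult vastus lateralis, against 362 to 499 CPM (median 453) in E18.5 gastrocnemius and 482 to 747 CPM (median 552) in E18.5 vastus lateralis. Its log2 change was 1.80 ± 0.10 in gastrocnemius, 1.58 ± 0.14 in vastus lateralis and 0.61 ± 0.13 in vastus intermedius, where library size alone reversed it (-0.16). In soleus the change of 0.22 ± 0.11 missed the threshold (adjusted p 0.0957), and it passed without adult A, E18.5 C or E18.5 E (0.26 to 0.31).

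The PFKFB enzymes make and remove fructose-2,6-bisphosphate, the strongest activator of phosphofructokinase-1, and this family changed its composition with age and muscle. Pfkfb1 was 30.6 to 96.0 CPM (median 53.1) over the 23 adult libraries, against 0.998 to 3.83 CPM (median 2.23) over the 24 E18.5 libraries. Its log2 change was 4.32 ± 0.18 in soleus, 5.21 ± 0.19 in gastrocnemius, 5.05 ± 0.20 in vastus intermedius and 4.08 ± 0.16 in vastus lateralis. Pfkfb3 rose far more in the fast-biased muscles. It was 414 to 2183 CPM (median 866) in adult gastrocnemius and 565 to 2088 CPM (median 1230.2) in adult vastus lateralis, against 16.2 to 35.8 CPM (median 25.2) in E18.5 gastrocnemius and 18.48 to 37.998 CPM (median 26.4) in E18.5 vastus lateralis. Adult soleus had 17.3 to 32.5 CPM (median 24.1), against 14.4 to 33.7 CPM (median 23.4) in E18.5 soleus, and the groups overlapped (log2 change 0.08 ± 0.23, adjusted p 0.763). Adult vastus intermedius had 119.7, 76.8, 32.3, 461 and 25.1 CPM, against 18.3 to 29.4 CPM (median 25.7) at E18.5, so that 1 library, that of collection E, was far above the rest. The log2 changes of Pfkfb3 were 5.31 ± 0.39 in gastrocnemius, 5.57 ± 0.39 in vastus lateralis and 2.57 ± 0.61 in vastus intermedius, the last being 1.42 without adult collection E, still past the threshold. Pfkfb3 accounted for 10.5 ± 2.16%, 65.1 ± 15.1%, 22.4 ± 18.6% and 73.8 ± 12.1% of PFKFB counts per kilobase in adult soleus, gastrocnemius, vastus intermedius and vastus lateralis, against 32.8% to 38.9% in the E18.5 groups.

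The other PFKFB genes were also higher in adults. Pfkfb4 was 30.4 to 39.97 CPM (median 33.4) in adult soleus, 82.3 to 167 CPM (median 125) in adult gastrocnemius and 90.6 to 157 CPM (median 117) in adult vastus lateralis. Adult vastus intermedius had 40.4, 45.3, 64.01, 67.9 and 56.1 CPM, against 9.37 to 28.4 CPM (median 17.3) over all E18.5 libraries. Its log2 change was smallest in soleus (1.37 ± 0.13) and largest in gastrocnemius (2.97 ± 0.17). Pfkfb2 leaned the other way, with 54.9 to 156 CPM (median 71.6) in adult soleus and 190.0, 62.4, 104, 81.1 and 121 CPM in adult vastus intermedius. It was 36.8 to 55.999 CPM (median 43.0) in adult gastrocnemius and 16.0 to 45.0 CPM (median 35.5) in adult vastus lateralis, against 11.6 to 21.8 CPM (median 16.0) over all E18.5 libraries. The log2 change was 2.40 ± 0.21 in soleus, 1.48 ± 0.12 in gastrocnemius, 2.83 ± 0.24 in vastus intermedius and 0.91 ± 0.20 in vastus lateralis, the last of which reversed by library size alone (-0.12). Fbp2, the muscle fructose bisphosphatase that runs the phosphofructokinase step backwards, rose by 1.74 ± 0.26 in soleus and 1.40 ± 0.17 in gastrocnemius on the log2 scale. It rose by 0.65 ± 0.21 in vastus lateralis, where library size alone gave -0.41 and the call was lost without E18.5 B and F (0.45). In vastus intermedius its change of 0.81 ± 0.37 missed the threshold (adjusted p 0.0602). It passed by DESeq2 (0.80), without adult D, adult F or E18.5 B (0.95 to 1.04) and without E18.5 B and F (1.16).

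**Figure D3:**
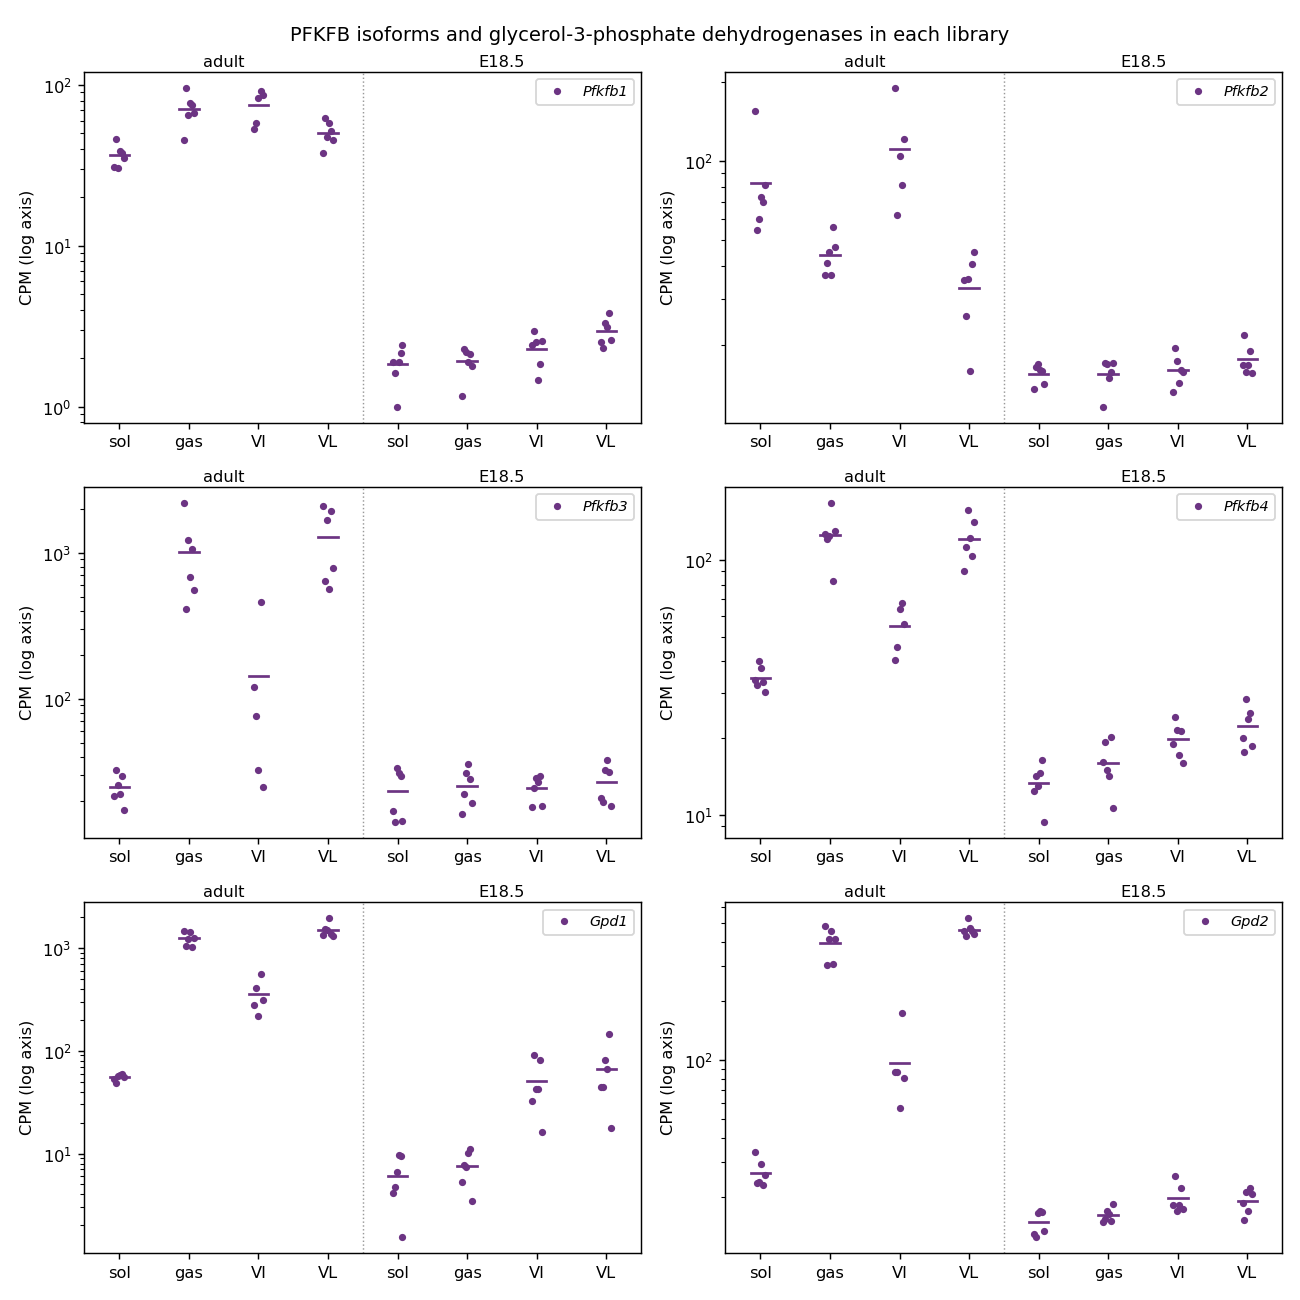
CPM of the 4 PFKFB genes and the 2 glycerol-3-phosphate dehydrogenases in each library (log axis), adult groups left of the dotted line and E18.5 groups right of it (sol, soleus; gas, gastrocnemius; VI, vastus intermedius; VL, vastus lateralis). Points are libraries and bars group means; Pfkfb3, Gpd1 and Gpd2 have higher means in adult gastrocnemius and vastus lateralis than in adult soleus and vastus intermedius, and the adult soleus libraries of Pfkfb3 lie within its E18.5 range.

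The trunk enzymes that split and oxidize the sugar phosphates rose in the adult fast-biased muscles, and Aldoa alone of them passed as higher in adult soleus. Aldoa, the muscle aldolase, was 3319 to 4085 CPM (median 3935) in adult soleus and 19406 to 24038 CPM (median 21385) in adult gastrocnemius, against 1034 to 2184 CPM (median 1537) in E18.5 soleus and 1003 to 1859 CPM (median 1576) in E18.5 gastrocnemius. It was 9459, 6357, 9573, 15011 and 11412 CPM in adult vastus intermedius and 21910.3 to 43281 CPM (median 24772) in adult vastus lateralis, against 1759.8 to 2985 CPM (median 2733) in E18.5 vastus intermedius and 1983 to 3564 CPM (median 2570.0) in E18.5 vastus lateralis. The log2 change of Aldoa was 1.31 ± 0.18 in soleus, 3.81 ± 0.16 in gastrocnemius, 2.04 ± 0.21 in vastus intermedius and 3.42 ± 0.23 in vastus lateralis. The sperm retrogenes Aldoart1 and Aldoart2, near copies of Aldoa, followed it at a low level. Aldoart1 averaged 4.00, 23.3, 11.3 and 33.1 CPM in adult soleus, gastrocnemius, vastus intermedius and vastus lateralis, against 1.63 to 3.28 CPM in the E18.5 groups, and reads may have been divided between the copies. Aldoc, an aldolase best known from brain, was at 0 to 1.19 CPM (median 0.495) over adult libraries, with 0 counts in 2 of the vastus lateralis libraries, against 1.20 to 15.05 CPM (median 3.74) at E18.5, and fell by 2.41 to 3.89 on the log2 scale. Tpi1 interconverts the triose phosphates, and Gapdh and Pgk1 yield the first NADH and ATP. These 3 genes rose by 1.75 ± 0.12, 2.46 ± 0.12 and 1.53 ± 0.11 in gastrocnemius and by 1.33 ± 0.17, 2.21 ± 0.21 and 1.28 ± 0.15 in vastus lateralis. Gapdh, for example, was 5831 to 7492 CPM (median 6839.6) in adult and 922 to 1419 CPM (median 1249) in E18.5 gastrocnemius, but 1360.4 to 1749 CPM (median 1579) in adult and 919.6 to 1811 CPM (median 1264) in E18.5 soleus. In soleus, Tpi1 (-0.29 ± 0.16, adjusted p 0.121) and Gapdh (0.25 ± 0.16, adjusted p 0.178) missed the threshold, and Pgk1 fell by 0.32 (adjusted p 0.0203), a call lost without E18.5 C, D or E (-0.23 to -0.27). Without E18.5 B and F, Tpi1 passed there (-0.41). In vastus intermedius Gapdh rose by 1.05 ± 0.17, and Tpi1 (0.32 ± 0.18) and Pgk1 (0.29 ± 0.17) missed the threshold, passing without adult C (0.45 and 0.39). By library size alone the soleus Gapdh and the vastus intermedius Tpi1 and Pgk1 values changed sign.

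Phosphoglycerate mutase changed isoforms with age in every muscle. The muscle gene Pgam2 was 804 to 862 CPM (median 823) in adult soleus and 2232 to 2559 CPM (median 2449) in adult gastrocnemius, against 142 to 443 CPM (median 259) in E18.5 soleus and 166 to 377 CPM (median 277) in E18.5 gastrocnemius. It was 1577, 984, 1461, 2036 and 1549 CPM in adult vastus intermedius and 2612 to 4157 CPM (median 2742) in adult vastus lateralis, against 391 to 708 CPM (median 504) in E18.5 vastus intermedius and 446 to 824 CPM (median 599.7) in E18.5 vastus lateralis. The widely expressed Pgam1 spanned 5.91 to 35.5 CPM (median 10.5) over the adult libraries, against 44.9 to 67.7 CPM (median 56.1) at E18.5, and the stages did not overlap for either gene in any muscle. Pgam2 rose by 1.60 ± 0.24, 3.08 ± 0.16, 1.54 ± 0.18 and 2.32 ± 0.18 in soleus, gastrocnemius, vastus intermedius and vastus lateralis on the log2 scale. Pgam1 changed by -1.91 ± 0.18, -2.64 ± 0.10, -1.37 ± 0.20 and -2.95 ± 0.12 in the same muscles. The log2 ratio of Pgam2 to Pgam1 counts within a library, which needs no normalization, was 3.70, 5.78, 2.97 and 5.29 higher in adults. Each exact two-sided permutation test gave p 0.0021645, the smallest that 6 or 5 against 6 libraries allow, and adjusted p 0.00356 over 12 pairs in 10 comparisons.

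The promoters of this pair and of the 2 lactate dehydrogenase genes are shown because the ratio within each pair changed with age. For the mutase pair it changed in every muscle, and for the lactate dehydrogenase pair in all but gastrocnemius. They are the 250 bases before an annotated start, for Ldha the more upstream of the 2 in the promoter table, from RefSeq on build GRCm38.p6, written 5′ to 3′ on the gene's strand. The annotated span of Ldha begins further upstream, at chr7:46842274, so the Ldha window shown lies within it. Capitals mark matches to 4 motifs on either strand, which are CAGCTG (an E-box of the type bound by myogenic factors), CATTCC (the M-CAT element), ACGTG (the core of the hypoxia response element) and the MEF2 motif.
Pgam2, chr11:5803797-5804046, minus strand: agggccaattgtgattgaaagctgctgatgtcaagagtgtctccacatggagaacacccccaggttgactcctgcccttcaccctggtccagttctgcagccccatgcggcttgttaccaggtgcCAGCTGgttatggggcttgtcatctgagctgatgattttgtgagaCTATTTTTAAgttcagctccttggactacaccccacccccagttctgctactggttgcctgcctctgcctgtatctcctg
Pgam1, chr19:41911621-41911870, plus strand: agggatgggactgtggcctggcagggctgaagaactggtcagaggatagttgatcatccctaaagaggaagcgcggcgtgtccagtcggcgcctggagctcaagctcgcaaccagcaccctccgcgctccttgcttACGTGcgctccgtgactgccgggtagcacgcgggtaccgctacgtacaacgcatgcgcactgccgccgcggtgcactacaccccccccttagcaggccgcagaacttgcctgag
Ldha, chr7:46845554-46845803, plus strand: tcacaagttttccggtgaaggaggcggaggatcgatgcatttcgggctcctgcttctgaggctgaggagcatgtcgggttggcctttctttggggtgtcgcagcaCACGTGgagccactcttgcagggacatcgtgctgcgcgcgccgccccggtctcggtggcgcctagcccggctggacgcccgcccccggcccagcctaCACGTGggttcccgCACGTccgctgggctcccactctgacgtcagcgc
Ldhb, chr6:142507958-142508207, minus strand: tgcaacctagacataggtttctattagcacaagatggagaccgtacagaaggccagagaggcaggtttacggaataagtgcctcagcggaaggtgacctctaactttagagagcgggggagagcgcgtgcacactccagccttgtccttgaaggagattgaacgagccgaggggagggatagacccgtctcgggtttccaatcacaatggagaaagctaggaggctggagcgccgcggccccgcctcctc
The Pgam2 window held CAGCTG 125 bases and a MEF2 match 80 bases before the start, and the Pgam1 window held ACGTG 114 bases before it. The promoter table has a second Ldha start, whose window (chr7:46846832-46847081) held none of the 4 motifs. The Ldha window shown held ACGTG 34 bases before the start and, on both strands at once within CACGTG, at 145 and 144 and at 48 and 47 bases. The Ldhb window held none of the 4 motifs. Windows were found for 28 of the 30 members, Slc2a4 and Gpd1 being the others. ACGTG was in a window of 14 of the 28 members and of 4998 of the 27025 genes in the promoter table. Counted by window, it was in 18 of 46 member windows (39.1%), against 16.6% of all 32851. CAGCTG was in 6 of the 28 (21.4%, against 14.7% of genes), CATTCC in 5 (17.9%, against 14.4%) and the MEF2 motif in 2, Pgam2 and Pfkfb1 (7.14%, against 3.42%). These counts describe letters in the windows, not binding.

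The enolases and pyruvate kinase close the pathway to pyruvate. Eno3, the muscle enolase, was 875 to 1166 CPM (median 1001) in adult soleus and 2837 to 6084 CPM (median 4670.0) in adult gastrocnemius, against 377 to 1023 CPM (median 563) in E18.5 soleus and 309 to 836 CPM (median 699) in E18.5 gastrocnemius. It was 1890.3, 1347, 2411, 3280.3 and 3297 CPM in adult vastus intermedius and 4377 to 9706 CPM (median 5584) in adult vastus lateralis, against 949 to 1595 CPM (median 1207) in E18.5 vastus intermedius and 1015 to 1711 CPM (median 1339.7) in E18.5 vastus lateralis. The change was 2.85 ± 0.24 in gastrocnemius and 2.18 ± 0.21 in vastus lateralis on the log2 scale, without overlap. It was 0.69 ± 0.21 in soleus and 0.99 ± 0.22 in vastus intermedius, where the stages overlapped and library size alone left 0.03 and 0.21, under the threshold. Eno2, the neuronal enolase, was 0.891 to 4.25 CPM (median 2.21) over the adult libraries, against 5.71 to 22.1 CPM (median 10.9) at E18.5, and fell by 1.78 to 2.89. Eno1, the widely expressed one, was also lower in adults (-2.19 ± 0.18 in soleus, -0.82 ± 0.30 in gastrocnemius, -1.40 ± 0.36 in vastus intermedius and -1.47 ± 0.27 in vastus lateralis). It scattered widely within groups, for example 27.1 to 104 CPM (median 76.3) in E18.5 vastus intermedius, and its counts are uncertain because near copies such as Eno1b (at most 0.967 CPM in any library) could share its reads. Pkm is the pyruvate kinase of muscle and most other tissues, whose splice forms a count per gene cannot separate. It was 3888 to 4954 CPM (median 4333) in adult gastrocnemius and 4475 to 8377 CPM (median 5005) in adult vastus lateralis, against 683 to 1021 CPM (median 895) in E18.5 gastrocnemius and 1009 to 1600.0 CPM (median 1200.1) in E18.5 vastus lateralis. Its log2 change was 2.29 ± 0.11 and 2.16 ± 0.18 there, 1.03 ± 0.17 in vastus intermedius and 0.51 ± 0.12 in soleus, where library size alone reversed it (-0.17).

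At lactate dehydrogenase the adult muscles differed in which subunit prevailed. Ldha (chr7:46842274-46855627), the muscle subunit, was 3151 to 4020.5 CPM (median 3449) in adult gastrocnemius and 3459 to 6977 CPM (median 4190.1) in adult vastus lateralis, against 583 to 925 CPM (median 809.7) in E18.5 gastrocnemius and 930.2 to 1559 CPM (median 1186) in E18.5 vastus lateralis, without overlap. The log2 changes were 2.16 ± 0.12 and 1.95 ± 0.19. In adult soleus it was 572 to 642 CPM (median 588), against 601 to 1122 CPM (median 794) at E18.5, a change of -0.46 ± 0.15 (adjusted p 0.0121) between overlapping groups. In adult vastus intermedius it was 1449.8, 888, 1358, 2533 and 1621 CPM, against 842 to 1348 CPM (median 1089) at E18.5. That change of 0.56 ± 0.21 was lost without adult E or F or E18.5 A or F (0.33 to 0.55) and without E18.5 B and F together (0.54), and library size alone reversed it (-0.21). Ldhb (chr6:142490249-142507957), the heart subunit, was 778 to 991 CPM (median 919) in adult soleus and 697, 812, 906, 557 and 746 CPM in adult vastus intermedius, against 28.6 to 53.3 CPM (median 35.7) in E18.5 soleus and 18.4 to 78.8 CPM (median 41.8) in E18.5 vastus intermedius. In adult gastrocnemius it was 24.7, 233, 204, 38.5, 329.6 and 172 CPM over collections A to F, against 18.1 to 27.6 CPM (median 24.2) at E18.5. Collections A and D lay near the E18.5 level and the other 4 far above it. In adult vastus lateralis it was 2.28 to 19.8 CPM (median 11.6), against 18.1 to 54.7 CPM (median 23.2) at E18.5. Ldhb thus rose by 4.59 ± 0.16 in soleus, 4.03 ± 0.37 in vastus intermedius and 2.83 ± 0.48 in gastrocnemius. It fell by 1.23 (adjusted p 0.0125) in vastus lateralis, a fall that missed the threshold without E18.5 B and F (-0.90). It made up 69.4 ± 1.70%, 6.70 ± 4.82%, 43.0 ± 12.3% and 0.408 ± 0.280% of lactate dehydrogenase counts per kilobase in adult soleus, gastrocnemius, vastus intermedius and vastus lateralis. At E18.5 its share was 6.95 ± 2.88%, 4.28 ± 0.736%, 6.04 ± 3.21% and 3.43 ± 2.02% in these muscles. The Ldha to Ldhb log2 ratio changed in adults, relative to E18.5, by -5.03 in soleus, -3.72 in vastus intermedius and 3.36 in vastus lateralis (exact permutation tests, adjusted p 0.00356 each), and by -0.16 in gastrocnemius (adjusted p 0.871).

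The gastrocnemius libraries with little Ldhb also had little slow myosin. Myh7 was 28.2 and 15.2 CPM in adult gastrocnemius of collections A and D, and 719, 1102, 1459.5 and 825 CPM in B, C, E and F, in which Ldhb was 233, 204, 329.6 and 172 CPM. Adult vastus intermedius libraries also differed. The collection E library of this muscle had the highest level of its group for 15 of the 30 members and the lowest for 5. Ldha, Slc16a3, Pfkfb3, Gpd1 and Gpd2 were among the 15, and this library held 52435 CPM of Myh4. The collection C library had the lowest level for 14 members and the highest for 3, and held 1068 CPM of Myh4. Such skews were also found elsewhere. Adult vastus lateralis of collection D was highest for 15 members, and E18.5 vastus lateralis of collection C for 23. The same count over all genes was not made. The part of fibre composition in these differences between libraries of 1 muscle was not tested.

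The lactate transporters divided in the same way. Slc16a3 (MCT4, chr11:120948484-120959000), known for lactate export, was 5.31 to 11.7 CPM (median 10.5) in adult soleus, against 42.1 to 117 CPM (median 86.9) at E18.5, a log2 change of -3.16 ± 0.29 with no overlap. In the fast-biased muscles it was 227 to 466.2 CPM (median 336) in adult gastrocnemius and 288 to 553 CPM (median 312) in adult vastus lateralis, against 49.3 to 99.5 CPM (median 85.5) in E18.5 gastrocnemius and 93.2 to 206 CPM (median 145) in E18.5 vastus lateralis. The log2 changes were 2.06 ± 0.18 and 1.32 ± 0.20, without overlap. In adult vastus intermedius it was 68.7, 24.3, 51.6, 148 and 78.9 CPM, against 87.7 to 163 CPM (median 138) at E18.5. The change of -0.80 ± 0.34 there (adjusted p 0.0433) was lost by DESeq2 (-0.81) and without any one of adult A, C, D or F or E18.5 B, C, D or E (-0.58 to -0.83) and without E18.5 B and F (-0.87). Slc16a1 (MCT1, chr3:104638664-104658462), known for lactate uptake into oxidative fibres, was highest in the adult slow-biased muscles. It was 296 to 432 CPM (median 313) in adult soleus and 304, 226, 212, 205 and 250.3 CPM in adult vastus intermedius, against 26.2 to 34.7 CPM (median 30.5) in E18.5 soleus and 36.1 to 58.4 CPM (median 42.8) in E18.5 vastus intermedius. It was 67.4 to 116 CPM (median 97.1) in adult gastrocnemius and 34.2 to 57.2 CPM (median 48.0) in adult vastus lateralis, against 20.6 to 29.7 CPM (median 24.8) in E18.5 gastrocnemius and 30.0 to 43.3 CPM (median 39.01) in E18.5 vastus lateralis. The log2 change was 3.46 ± 0.12 in soleus, 2.40 ± 0.15 in vastus intermedius and 1.91 ± 0.15 in gastrocnemius, without overlap. In vastus lateralis the change of 0.25 ± 0.14 missed the threshold (adjusted p 0.111), passed without adult A or C (0.32 and 0.33) and reversed by library size alone (-0.80). Slc16a1 made up 95.4 ± 1.65%, 14.6 ± 5.15%, 67.3 ± 14.5% and 7.09 ± 1.56% of the 2 transporters per kilobase in adult soleus, gastrocnemius, vastus intermedius and vastus lateralis, against 13.9% to 18.9% in the E18.5 groups.

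**Figure D4:**
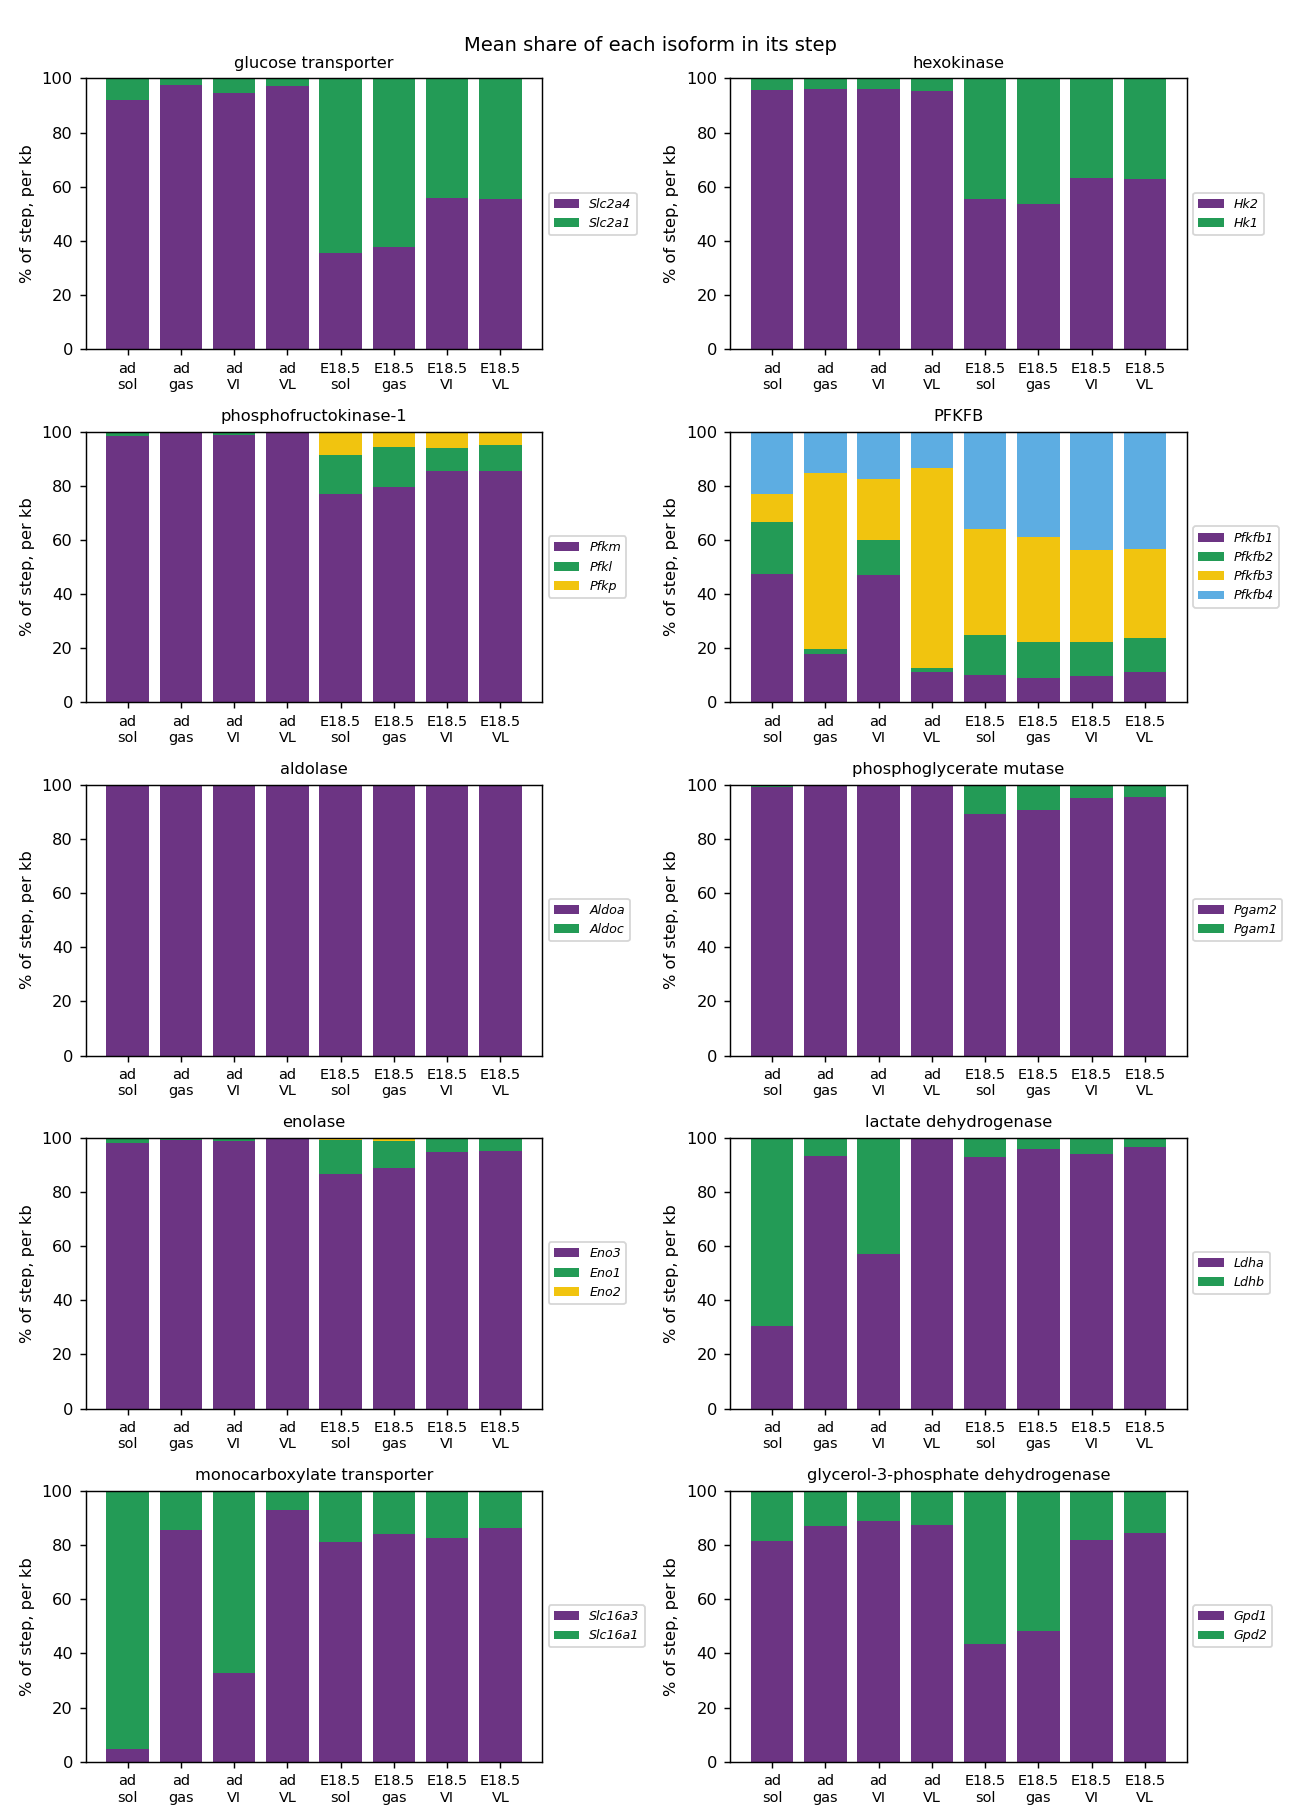
Mean share of each isoform in the counts per kilobase of its step (y axis, percent) for the 4 adult groups (left, ad) and the 4 E18.5 groups (right) (sol, soleus; gas, gastrocnemius; VI, vastus intermedius; VL, vastus lateralis). The muscle isoforms fill most of the hexokinase and glucose transporter bars in adults but share them at E18.5, while Ldhb and Slc16a1 hold 69.4% and 95.4% in adult soleus.

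Glycerol-3-phosphate dehydrogenases pass electrons from cytosolic NADH to mitochondria, Gpd1 in the cytosol and Gpd2 at the mitochondrial inner membrane. Gpd1 had the largest rise of all members, with 1012 to 1459 CPM (median 1243) in adult gastrocnemius, against 3.43 to 11.1 CPM (median 7.56) at E18.5, a log2 change of 7.36 ± 0.27 (adjusted p 7.84e-13). Adult vastus lateralis had 1307 to 1941 CPM (median 1436), against 17.6 to 146 CPM (median 55.2) at E18.5, a change of 4.48 ± 0.40. Adult soleus had 48.5 to 59.1 CPM (median 56.2) and adult vastus intermedius 279, 407, 219, 554 and 314 CPM, against 1.54 to 9.57 CPM (median 5.64) in E18.5 soleus and 16.3 to 90.8 CPM (median 42.0) in E18.5 vastus intermedius, changes of 3.19 ± 0.32 and 2.83 ± 0.39. Adult and E18.5 libraries did not overlap in any muscle. Gpd2 was 303 to 479.9 CPM (median 414) in adult gastrocnemius and 429 to 527 CPM (median 454) in adult vastus lateralis. It was 23.0 to 33.7 CPM (median 24.8) in adult soleus and 86.6, 86.4, 57.1, 173 and 80.8 CPM in adult vastus intermedius, against 12.5 to 25.6 CPM (median 16.9) over the E18.5 libraries. It rose by 4.60 ± 0.13 in gastrocnemius, 4.59 ± 0.11 in vastus lateralis, 0.83 ± 0.12 in soleus and 2.32 ± 0.23 in vastus intermedius.

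Of the 12 isoform pairs, the ratio within a library differed between adult and E18.5 for 12 in soleus, 9 in gastrocnemius, 11 in vastus intermedius and 11 in vastus lateralis (exact permutation tests, adjusted over 120). The pairs of muscle against other isoforms at the transporter, hexokinase, phosphofructokinase, aldolase, mutase and enolase steps moved toward the muscle isoform in all 4 muscles, by 2.31 (Eno3 over Eno1, vastus intermedius) to 7.91 (Aldoa over Aldoc, vastus lateralis) on the log2 scale. The change of 7.91 rests on Aldoc at or near 0 counts in adults, where the log2 ratio spanned 14.2 to 20.2. Aldoa already held 99.7% of aldolase counts per kilobase in E18.5 vastus lateralis, against 99.998% in adults. Slc16a3 over Slc16a1 moved by -6.57 in soleus and -3.41 in vastus intermedius but by 1.08 in vastus lateralis, and by 0.19 in gastrocnemius (adjusted p 0.6). Pfkfb1 over Pfkfb3 moved by 4.20 and 3.27 in soleus and vastus intermedius and by -1.34 in vastus lateralis (adjusted p 0.02), the last not without E18.5 F (-1.27) or without B and F (-1.24). Gpd1 over Gpd2 moved by 2.59 in soleus and 2.85 in gastrocnemius, and its 0.74 in vastus intermedius and 0.16 in vastus lateralis did not pass (adjusted p 0.0592 and 0.823), the first passing without E18.5 B and F (0.59).

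Among adult muscles the enzymes of the trunk were lower, and Ldhb and Slc16a1 higher, in the slow-biased muscle of each segment. Soleus over gastrocnemius, 10 members were higher and 18 lower (median log2 difference -1.31, against 0.08 over all genes), where 27.7% of 14304 genes were higher and 25.9% lower. Vastus intermedius over vastus lateralis, 11 were higher and 15 lower (median -0.80, against 0.07), where 27.9% were higher and 24.3% lower. By library size alone the split of all genes became 7541 higher and 1603 lower in the shank (3958 and 3699 by TMM) and 6229 and 1720 in the thigh (3996 and 3470), and no called member changed sign. The largest differences in the shank were those of Pfkfb3 (-5.33 ± 0.63, adjusted p 1.82e-07), Slc16a3 (-5.14 ± 0.34, adjusted p 1.92e-11), Gpd1 (-4.46 ± 0.18, adjusted p 2.39e-14) and Gpd2 (-3.87 ± 0.20, adjusted p 6.81e-13), all lower in soleus. In the thigh the largest was that of Ldhb, 6.02 ± 0.55 (adjusted p 6.99e-09). The lowest vastus intermedius library held 557 CPM of Ldhb and the highest vastus lateralis library 19.8 CPM. Aldoa, Tpi1, Gapdh, Pgk1, Pgam2, Eno3, Pkm and Ldha were lower by 1.52 to 2.56 in soleus and by 0.99 to 1.55 in vastus intermedius. Their groups did not overlap in either segment, and the share of all genes without overlap was not counted for these comparisons. Pfkfb1 had opposite signs, -0.93 ± 0.16 in the shank (adjusted p 3.54e-05) and 0.59 ± 0.17 in the thigh (adjusted p 0.00436), and neither passed with the embryonic-profile library kept in (-0.94 and 0.32).

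Several isoforms other than the muscle ones went the other way. Slc2a1 (1.42 in the shank and 0.99 in the thigh), Hk1 (0.67 and 0.66), Pfkl (0.76 and 1.09), Pfkp (0.88 and 0.96), Pgam1 (0.76 and 1.53) and Eno2 (1.02 and 0.89) were higher in adult soleus and vastus intermedius on the log2 scale, with adjusted p between 5.88e-06 and 0.0105. Eno1 was an exception, lower in soleus than in gastrocnemius between overlapping groups (-1.09 ± 0.30, adjusted p 0.00383) and not past the threshold in the thigh (0.06 ± 0.31, adjusted p 0.888). Without adult C the thigh differences of Slc2a1 (0.84) and Eno2 (0.56) missed the threshold. The sum of 8 endothelial markers was also higher there, 595 to 706 CPM in soleus and 386 to 563 CPM in gastrocnemius, and 657 to 866 CPM in vastus intermedius and 275 to 474 CPM in vastus lateralis. The sum of 6 leukocyte markers was 113 to 176 CPM in soleus and 41.8 to 109 CPM in gastrocnemius. It was 92.4 to 141 CPM in vastus intermedius and 30.1 to 94.2 CPM in vastus lateralis. Of the tested genes, 7 of 7 endothelial and 6 of 6 leukocyte markers were higher in soleus, and 7 of 7 and 3 of 6 in vastus intermedius, and no leukocyte marker was at 0 in any group, while the endothelial marker Cldn5 was at 0 in the adult groups. The part of these cells in the differences was not tested. Of the muscle isoforms of the upper steps, Slc2a4 did not pass in either segment (-0.24 ± 0.13, adjusted p 0.129, and 0.06 ± 0.14, adjusted p 0.734), although the shank difference passed with collections as a block (-0.25). Hk2 was higher in vastus intermedius (1.02 ± 0.23, adjusted p 0.000567) and in soleus (0.55 ± 0.22, adjusted p 0.0344), the second lost with collections as a block (0.49) and without adult A (0.20), C or F. Of the 12 isoform ratios, 11 differed between adult soleus and gastrocnemius and 8 between adult vastus intermedius and vastus lateralis. The largest were Slc16a3 over Slc16a1 in the shank (-7.06) and Ldha over Ldhb in the thigh (-7.90), both with adjusted p 0.00356 by exact permutation. These permutations did not pair the muscles of a collection. Sign flips within collections do, but their smallest p (0.03125 with 6 pairs, 0.0625 with 5) cannot pass after adjustment, so they cannot decide.

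**Figure D5:**
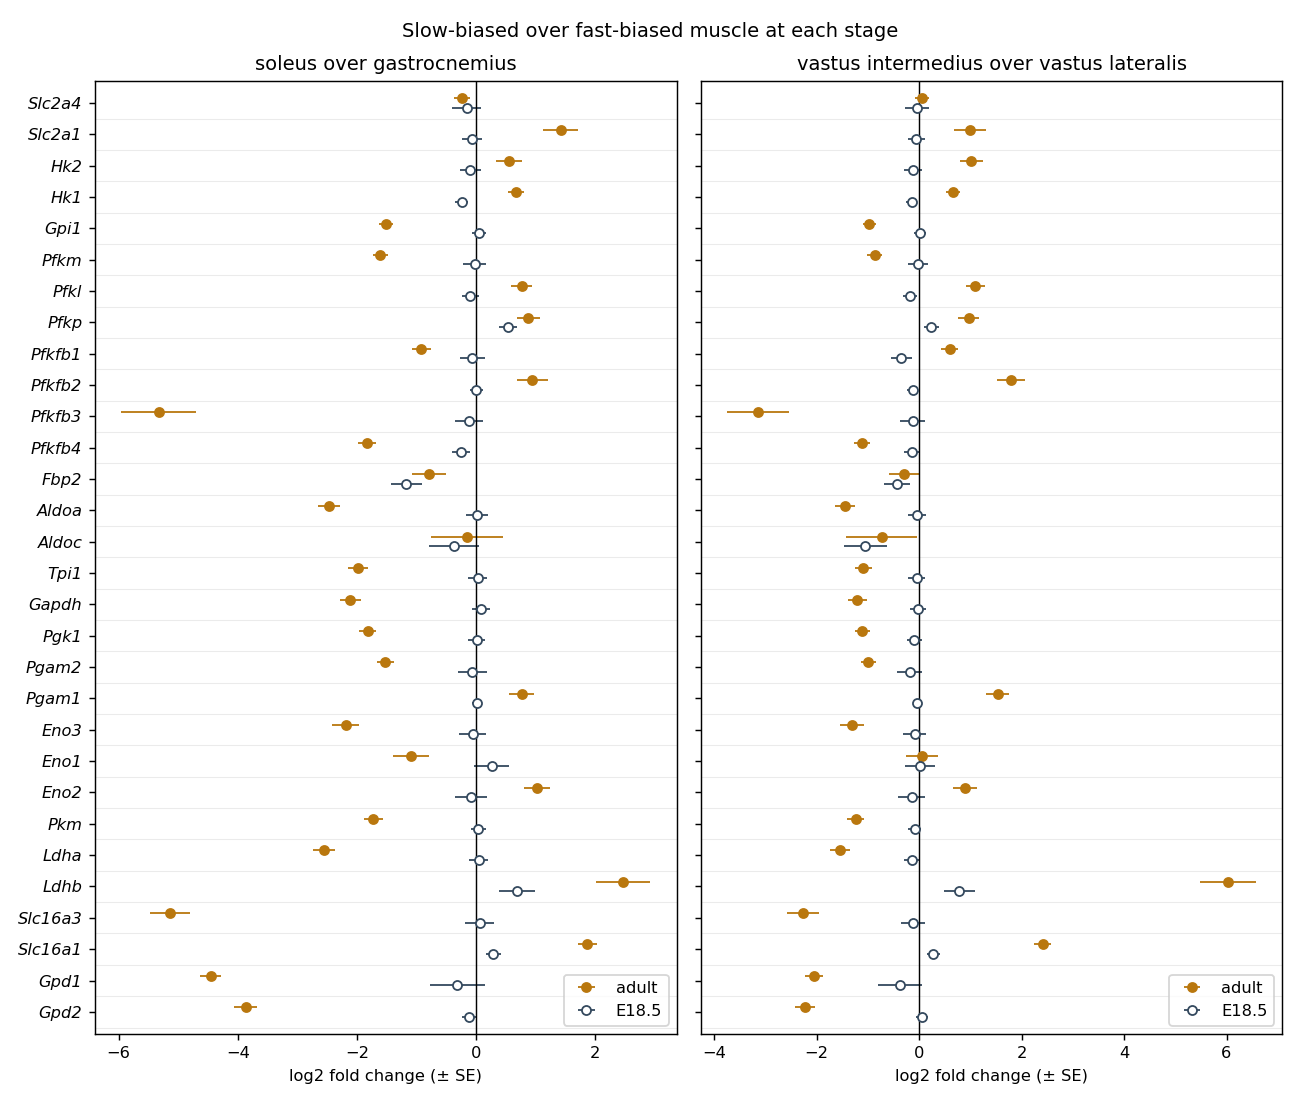
Log2 fold change of each member, soleus over gastrocnemius (left panel) and vastus intermedius over vastus lateralis (right panel), with its standard error, in adults (filled) and at E18.5 (open). Adult values spread from -5.33 to 2.46 and from -3.14 to 6.02, while E18.5 values stay between -1.17 and 0.78.

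At E18.5 no member passed the test between the muscles of a segment. Soleus over gastrocnemius, 0 of 30 passed by edgeR, 5 had an unadjusted p under 0.05, and 0.0952% of 15751 genes were higher and 0.19% lower. By DESeq2, 2 members passed there, Pfkp (0.53) and Fbp2 (-1.17), and with collections as a block Pfkp did (0.53), when 101 of all genes passed in place of 45. The most negative difference was that of Fbp2 (-1.17 ± 0.26, adjusted p 0.0511), with 1.81 to 5.53 CPM (median 3.45) in soleus and 5.11 to 9.64 CPM (median 9.04) in gastrocnemius. The most positive was that of Ldhb (0.69 ± 0.30, adjusted p 0.505). Ldhb was 28.6 to 53.3 CPM (median 35.7) in soleus and 18.1 to 27.6 CPM (median 24.2) in gastrocnemius. It was the 1 member whose groups did not overlap, and the share of all genes without overlap was not counted for this comparison. Vastus intermedius over vastus lateralis, 0 of 30 passed by edgeR and 0 by DESeq2, 3 had an unadjusted p under 0.05, and 0.00635% of genes were higher and 0.0254% lower. The extremes were Ldhb (0.78 ± 0.30, adjusted p 0.64), with 50.6, 22.6, 75.2, 78.8, 33.04 and 18.4 CPM in vastus intermedius and 18.1, 54.7, 19.9, 24.3, 23.6 and 22.8 CPM in vastus lateralis over collections A to F, and Aldoc (-1.05 ± 0.42, adjusted p 0.648). In collection B, whose Myh7 was reversed, Ldhb was 22.6 CPM in vastus intermedius and 54.7 CPM in vastus lateralis. Collections B and F were singled out after seeing the data, by a slow myosin of the same libraries, and leaving them out favours a difference. Without them Ldhb (1.49), Fbp2 (-0.996) and Aldoc (-1.63) passed, and 174 genes were higher and 94 lower in vastus intermedius in place of 1 and 4. No isoform ratio passed in either segment by exact permutation (smallest p 0.0736 in the shank and 0.0693 in the thigh, adjusted p 0.105 and 0.101). Without B and F, 3 passed in the thigh, namely Aldoa over Aldoc (1.56), Ldha over Ldhb (-1.69) and Slc16a3 over Slc16a1 (-0.64).

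The muscle difference itself changed with age for most members. In the shank, by a test of the interaction, the soleus to gastrocnemius difference changed for 25 of 30 members, where 38.5% of 16402 genes did. It was higher in adults than at E18.5 for 8 of them and lower for 17 (over all genes, 3034 and 3284). In the thigh, 11 had a higher and 15 a lower vastus intermedius to vastus lateralis difference, where 18.1% and 17.3% of genes did. By library size alone the split of all genes was 6531 and 1271 in the shank and 5422 and 1182 in the thigh (2968 and 2834 by TMM in the thigh). The largest changes were Pfkfb3 (-5.25 ± 0.64), Slc16a3 (-5.24 ± 0.41) and Gpd1 (-4.18 ± 0.52) in the shank and Ldhb (5.21 ± 0.60) in the thigh, with adjusted p of at most 1.18e-08. Slc2a4, Fbp2 and Aldoc did not pass in either segment, with changes of -0.11 ± 0.28 and 0.07 ± 0.29 for Slc2a4, 0.33 ± 0.40 and 0.12 ± 0.40 for Fbp2, and 0.17 ± 0.74 and 0.28 ± 0.85 for Aldoc. Of the isoform ratios, 9 changed in the shank and 7 in the thigh.

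Of 24 other glycolysis and lactate genes outside the 30, 17 to 19 had enough counts to be tested. Between adult and E18.5 soleus, 11 of 17 tested were higher and 3 lower, against 36.3% and 39.7% of all genes. In gastrocnemius the counts were 11 and 5 of 18 (38.2% and 44.0% of all genes). They were 10 and 4 of 17 in vastus intermedius (36.9% and 39.2%) and 11 and 2 of 17 in vastus lateralis (36.4% and 42.6%). Ldhd, the mitochondrial D-lactate dehydrogenase, was 39.7 ± 8.40 CPM, 46.1 ± 7.39 CPM, 71.2 ± 10.4 CPM and 41.1 ± 10.9 CPM in adult soleus, gastrocnemius, vastus intermedius and vastus lateralis, against 0.494 to 1.63 CPM on average at E18.5. Its log2 changes were 6.07, 6.56, 5.49 and 5.26 in these muscles. Tigar, a fructose-2,6-bisphosphatase that opposes the PFKFB kinases, was 64.6 ± 7.79 CPM, 262 ± 32.5 CPM, 137 ± 39.1 CPM and 274 ± 32.2 CPM, against 4.57 to 5.67 CPM at E18.5. Its log2 changes were 3.69, 5.83, 4.63 and 5.62. Mpc1, a subunit of the mitochondrial pyruvate carrier, was 181 ± 16.9 CPM in adult and 17.2 ± 3.96 CPM in E18.5 soleus. Its log2 change was 3.38 ± 0.15 there and 3.04 ± 0.16 in vastus intermedius. Mean Mpc1 was also higher in the adult fast-biased muscles. It was 180.1 CPM in adult and 15.7 CPM in E18.5 gastrocnemius, and 155.8 CPM in adult and 26.5 CPM in E18.5 vastus lateralis. Bpgm, bisphosphoglycerate mutase, was 175 ± 21.4 CPM in adult and 21.5 ± 18.8 CPM in E18.5 vastus lateralis (3.02 ± 0.37). The E18.5 libraries of that muscle spanned 12.5 to 59.9 CPM of Bpgm. Their sum of 6 erythroid genes was 81.2 to 988 CPM, against 15.7 to 70.5 CPM in adult vastus lateralis. The part of red cells was not tested. Hkdc1, a hexokinase-like gene, was lower in adult gastrocnemius, at 0.0409 ± 0.1002 CPM, against 0.541 ± 0.0637 CPM at E18.5. It was at 0 CPM in adult soleus, vastus intermedius and vastus lateralis, against means of 0.368, 0.207 and 0.401 CPM at E18.5. Such low counts limit these comparisons. Between adult muscles, 0 of 17 tested were higher and 7 lower in soleus than in gastrocnemius by edgeR, against 27.7% and 25.9% of all genes. There 8 had an unadjusted p under 0.05, and DESeq2 also called 0 and 7. In vastus intermedius, 4 of 17 were higher and 5 lower than in vastus lateralis by edgeR, against 27.9% and 24.3% of all genes. Slc2a3, the transporter GLUT3, was 1.63 ± 0.393 CPM in soleus and 19.3 ± 6.68 CPM in gastrocnemius, and 2.07 ± 1.03 CPM in vastus intermedius and 20.3 ± 6.27 CPM in vastus lateralis, differences of -3.52 ± 0.28 and -3.29 ± 0.30. Tigar (-1.99 and -0.97) and Bpgm (-1.83 and -1.23) were lower in both slow-biased muscles. At E18.5, 0 of the 19 tested passed in either segment by edgeR and 0 by DESeq2, with 0 in the shank and 2 in the thigh at an unadjusted p under 0.05. Of 19 tested, the muscle difference changed with age for 0 upward and 6 downward in the shank, where 38.5% of all genes changed. DESeq2 also called 0 and 6 there. In the thigh the difference changed for 1 upward and 4 downward of 19, against 18.1% and 17.3% of all genes. The largest such changes were those of Slc2a3 (-3.85 ± 0.33), Tigar (-2.15 ± 0.20), Bpgm (-2.03 ± 0.40) and Pgp (-1.03 ± 0.17), a phosphatase of by-products of glycolysis, in the shank. In the thigh they were Slc2a3 (-3.06 ± 0.34), Bpgm (-1.08 ± 0.41), Tigar (-1.04 ± 0.20) and Bsg (-0.96 ± 0.14), the partner protein of the lactate transporters.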

How the data were processed

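Male FVB/NJ mice gave 48 libraries from 4 muscles of 12 animals, made from RNA of integrity number above 7 with random primers, per the labels' protocols. Tools named in the submitters' processing notes are STAR 2.7.11, Trimmomatic 0.39.0 and featureCounts from Subread 2.0.6, with the mm10 genome. The sources used here name no annotation or strand setting, so a gene and an overlapping or antisense one cannot be told apart. The authors deposited raw counts per gene, and their table of all-muscle stage comparisons holds log2 fold changes and p-values, of which its symbols were used: 18780 of the 27179 genes took a symbol from it, 6501 from RefSeq and 1898 had none. The members and lists were chosen with earlier results of these data known.

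Counts were fitted in edgeR 4.0.16 (R 4.3.3; TMM, default low-count filter, quasi-likelihood test): per muscle for stage, per stage for muscle, and over 8 groups for the interaction, adjusted over all genes at 0.05. The embryonic-profile library was left out. Printed CPM use TMM factors over all 48 libraries. Isoform ratios are log2 of counts plus 0.5, tested by exact two-sided permutation (Benjamini-Hochberg over 120). Shares divide counts by transcript length in kilobases. Alternatives were DESeq2 1.42.0, other scalings, no filter, leave-one-out, a block and library choices, and the edgeR steps were checked on simulated counts. All 30 members passed the low-count filter in every comparison, and replicates differed beyond counting error (lowest chi-square per degree of freedom 10.23).

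Collection letters stand for the date tags in the count table's sample names, within a stage only. That each of the 6 tags of a stage is 1 animal is an assumption, since the labels number the animals and do not give the tags. Libraries of the same collection deviated together (mean correlation 0.145 in adults and 0.252 at E18.5, against -0.029 and -0.049 between collections), so a block by collection was fitted as an alternative, which rests on that assumption. Values in every sample are given for isoform pairs whose ratio passed and for the extremes of each comparison; of the 24 other genes, the up to 4 with the largest difference among those past the threshold in a comparison are named, except 1 that is not reported here.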

Additional observations from a re-analysis of the deposited data

Results flagged for a closer look

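In 20 of 240 combinations of member and group, 1 library lay far from the others of its group by Dixon's test, which chance would do in about 1 in 20 groups of independent values; genes of 1 library are not independent. At E18.5, collection F gastrocnemius was low for Slc2a4 (11.1 CPM), Gpi1 (362 CPM) and Gapdh (922 CPM), and collection F vastus intermedius for Pfkm (455 CPM). Collection C was high for Slc2a1 in soleus (36.8 CPM) and vastus intermedius (32.1 CPM) and for Pgam1 in soleus (65.8 CPM), and collection B for Ldhb in vastus lateralis (54.7 CPM). Among adults, collection A was high for Hk2 in soleus (1464 CPM) and vastus intermedius (1450.1 CPM), for Pfkfb2 in soleus (156 CPM), and for Pgam1 (35.5 CPM) and Aldoc (0.745 CPM) in vastus intermedius, and low for Slc2a1 in vastus lateralis (2.44 CPM). Adult vastus intermedius of collection E was high for Pfkfb3 (461 CPM) and Gpd2 (173 CPM), and that of collection C was far from the others for Eno1 (49.5 CPM). Adult vastus lateralis of collection D was far from the others for Pgk1 (1375 CPM) and Gpd1 (1941 CPM), and adult gastrocnemius of collection F for Pgam1 (11.9 CPM).

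The interaction test found a soleus to gastrocnemius difference that was higher in adults than at E18.5 on the log2 scale for Slc2a1 (1.45), Hk1 (0.88), Pfkl (0.82), Pfkfb2 (0.91), Pgam1 (0.72), Eno2 (1.07), Ldhb (1.74) and Slc16a1 (1.54). It was lower for Gpi1 (-1.60), Pfkm (-1.62), Pfkfb1 (-0.90), Pfkfb3 (-5.25), Pfkfb4 (-1.62), Aldoa (-2.52), Tpi1 (-2.05), Gapdh (-2.23), Pgk1 (-1.87), Pgam2 (-1.50), Eno1 (-1.39), Eno3 (-2.17), Pkm (-1.80), Ldha (-2.64), Slc16a3 (-5.24), Gpd1 (-4.18) and Gpd2 (-3.79). The vastus intermedius to vastus lateralis difference was higher in adults for Slc2a1 (1.02), Hk1 (0.77), Hk2 (1.11), Pfkl (1.25), Pfkp (0.69), Pfkfb1 (0.92), Pfkfb2 (1.88), Pgam1 (1.54), Eno2 (1.02), Ldhb (5.21) and Slc16a1 (2.11). It was lower for Gpi1 (-1.01), Pfkm (-0.87), Pfkfb3 (-3.03), Pfkfb4 (-0.99), Aldoa (-1.42), Tpi1 (-1.06), Gapdh (-1.21), Pgk1 (-1.04), Pgam2 (-0.83), Eno3 (-1.23), Pkm (-1.17), Ldha (-1.42), Slc16a3 (-2.16), Gpd1 (-1.70) and Gpd2 (-2.31). Of the members that passed in both segments, Pfkfb1 was the 1 whose change had opposite signs in the shank and the thigh; the difference between the segments was not tested. The thigh change of Slc2a1 lost its call without adult A (0.67), adult C or E18.5 D, that of Eno2 without adult C (0.71) or E18.5 D or E, that of Pfkp without adult C (0.63), that of Pgam2 without adult C or D or E18.5 B (-0.65 to -0.72), and the shank change of Eno1 without adult A (-1.09). Without E18.5 B and F, the calls of Pfkfb2 in the shank (0.82) and of Pfkp (0.59) and Pgam2 (-0.63) in the thigh were lost.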

How the results depend on the processing

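Scaling by library size alone reversed 11 stage changes: in soleus Gpi1 (-0.46), Pfkfb3 (-0.58), Gapdh (-0.43) and Pkm (-0.17), in vastus intermedius Gpi1 (-0.16), Tpi1 (-0.45), Pgk1 (-0.48) and Ldha (-0.21), and in vastus lateralis Pfkfb2 (-0.12), Fbp2 (-0.41) and Slc16a1 (-0.80); TMM and library size differ by the median shift given above. Soleus over gastrocnemius at E18.5, 45 of all genes passed, against 164 by DESeq2, 101 with collections as a replicate block, 7 without E18.5 B and F and 9 to 34 leaving out 1 collection; of the members, DESeq2 called 1 higher and 1 lower, the block 1 higher, and upper-quartile and library-size scaling 1 lower each. Vastus intermedius over vastus lateralis at E18.5, 5 genes passed, against 3 by library size, 19 by DESeq2, 268 without B and F and 0 to 100 leaving out 1 collection; members called higher were 0 to 1 leaving out 1 collection, and 1 higher and 2 lower without B and F, and ratios that passed were 0 to 3 and 3. With the embryonic-profile library, 5 members in place of 8 were higher in the interaction in the shank. The block changed no other member's call beside those of Hk2, Slc2a4 and Pfkp given above; as sign flips within collections it passed 0 ratios in either adult comparison, since its smallest p (0.03125 with 6 pairs, 0.0625 with 5) cannot pass after adjustment. Low counts limit Aldoc in adults and Pfkfb1 at E18.5. Other members also fell low in some libraries, among them Eno2 (0.891 CPM) and Ldhb (2.28 CPM) in adults. At E18.5, Gpd1 fell to 1.54 CPM and Fbp2 to 1.81 CPM. Counting error is small for members with high counts, for which the 5 or 6 animals per group set the precision.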

Other observations

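At E18.5 the vastus muscles of the thigh were set beside the soleus and gastrocnemius of the shank, a comparison chosen after the values were seen and given without a test, with 12 libraries from 6 collections on each side. Gpd1, the cytosolic glycerol-3-phosphate dehydrogenase, was 16.3 to 146 CPM (median 44.1) in the thigh and 1.54 to 11.1 CPM (median 6.97) in the shank, a ratio of means of 8.68. It was the only 1 of the 30 members whose thigh and shank libraries did not overlap; among 13417 genes with a mean of at least 1 CPM, 0.462% lay wholly above and 0.142% wholly below in the thigh. The ratio of means, thigh over shank, was above 1 for 25 of the 30 members and for 46.7% of the 13417 genes, with members such as Slc2a4 (2.13), Pgam2 (2.06) and Eno3 (2.03) having overlapping libraries. The summed level of 11 muscle fibre genes moved with it, with overlapping ranges and medians of 54050 CPM in vastus intermedius and 47698 CPM in vastus lateralis, against 29677 CPM in soleus and 30117 CPM in gastrocnemius, and its part in the ratios was not tested. Thigh muscles were not compared with shank muscles in adults.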
